A study of Ursus arctos with 12 samples.

Results

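The 10 genes described here act at successive steps of skeletal muscle regeneration, from the resting satellite cell to the fusing myoblast. They were chosen by name: PAX7, CDH15, NCAM1, MET, MYF5, MYOD1, MYOG, MYF6, MYMK and RUNX1. All 10 were listed by symbol among the 30249 genes of the count table, and all 10 had at least 30 reads summed over the 12 libraries, as did 17290 genes in all. RNA was sequenced from vastus lateralis muscle, a thigh muscle, of 6 free-ranging brown bears (Ursus arctos) aged 2 to 3 years. Each bear was sampled in summer, when active, and in winter, during hibernation, which gave 6 libraries per season and 6 pairs by animal. By their labels the groups differ in season alone. The comparison asked how the muscle of the same animals differed between hibernation and activity.

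Satellite cells are the resident stem cells of muscle and lie between the fibre and its basement membrane. PAX7 is the transcription factor that marks and maintains them. On activation they express the myogenic regulatory factors, a family of basic helix-loop-helix transcription factors: MYF5 and MYOD1 commit cells to the muscle lineage, MYOG drives their differentiation, and MYF6 (also called MRF4) is the member that remains abundant in mature fibres. Differentiated myoblasts then fuse with each other or with a fibre, which needs the membrane protein MYMK (myomaker). Several of these genes are also transcribed in fibres, where loss of the nerve raises MYOG, NCAM1 and RUNX1.

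Libraries held 20191068 to 27283155 reads on genes in summer and 16742406 to 32140160 in winter. Levels are given as CPM, the reads of a gene per 1000000 reads of its library, scaled between libraries with TMM factors. They are compared within a gene only, because transcript lengths were not used. Markers of myofibres were abundant in both seasons, with summed levels of 108000 to 180000 CPM in summer and 111000 to 146000 CPM in winter. The winter library of bear 1509 stood apart: it held the lowest or highest winter value, by Dixon's criterion, for 851 of 17290 genes (4.92%), against 72 to 350 genes in the other winter libraries. Its summed Schwann cell markers reached 126 CPM, against 6.94 to 25.3 CPM in the other winter libraries. For the 10 genes, results that change without it are given both ways. Among the list and marker genes below, edgeR without it also called MEGF10, TCF4, ID2, ELMO1 and MBP lower (adjusted p of 0.00745 to 0.0398). Without it CSF1R (adjusted p = 0.0579) and ADGRB3 (0.868) were no longer called. The list and marker counts below include this library unless stated. The samples were whole tissue, so fewer cells of a type and less RNA per cell cannot be told apart for any gene below.

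In winter, 1 of the 10 genes was higher (MYF6), 2 were lower (MYF5 and PAX7) and 7 did not pass the test. The test was edgeR's quasi-likelihood test of winter against summer, with p-values adjusted by Benjamini-Hochberg over the 17290 genes and a threshold of 0.05. By the same test 39.5% of all genes were called, 19.6% higher and 19.9% lower, and 40.8% were called either way when the bear was a block, so the share of these genes that was called did not exceed that of genes in general. Leaving out a bear lowered the number called among all genes, from 6831 to between 5258 and 6520, so calls lost that way are not particular to these genes. The median log2 fold change of the 10 genes was -0.09, and that of all genes tested was 0.00. The 2 seasons did not overlap for 1 gene, MYF5, where 17.3% of all genes had no overlap 8.21% with winter below summer and 9.12% with winter above. It was also the only one of the 10 to move the same way in all 6 bears, as 37.4% of all genes did.

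**Figure D1:**
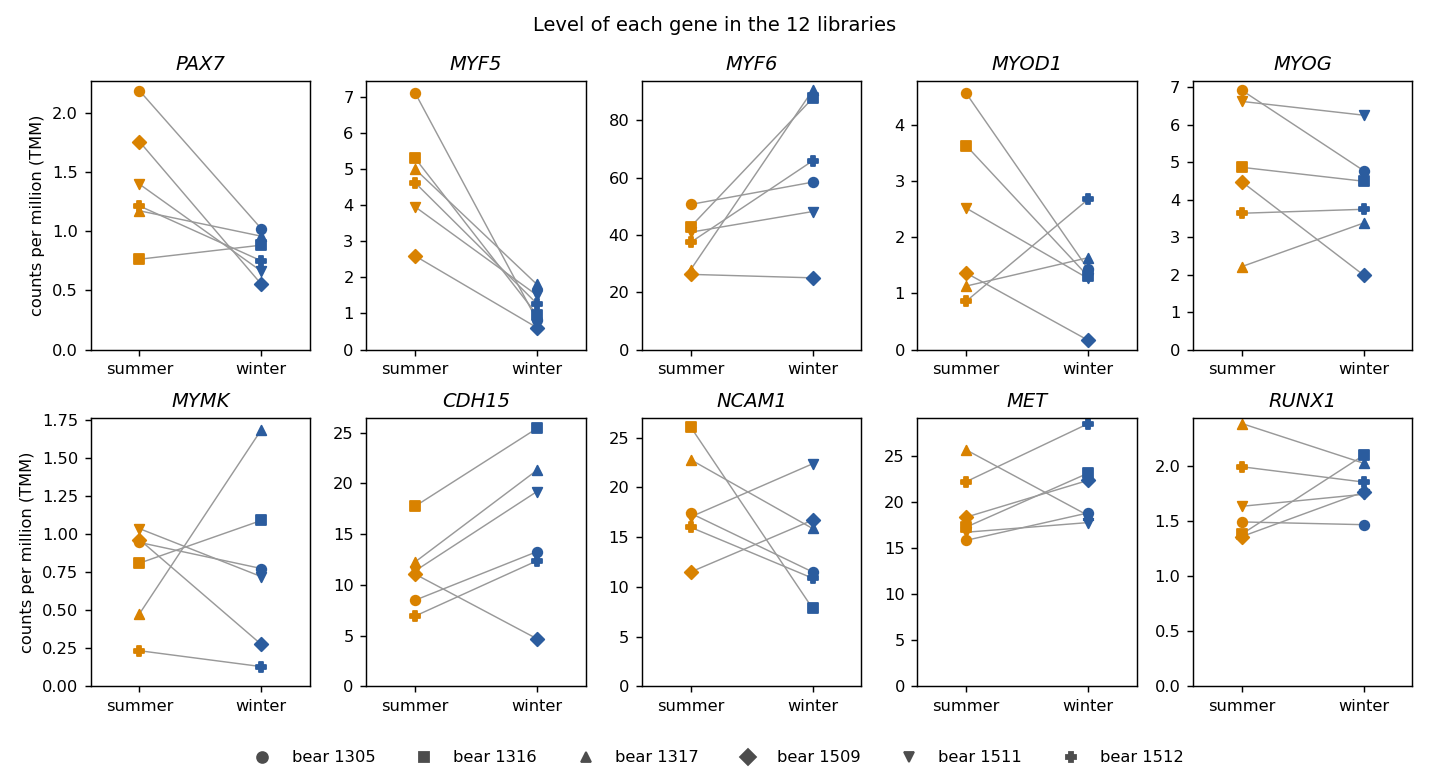
Level of each of the 10 genes in CPM in summer and winter, with 1 point per library and a line joining the libraries of each bear. All 6 MYF5 lines fall, from 2.59 to 7.10 CPM in summer to 0.607 to 1.80 CPM in winter, while lines of most other genes cross or run level.

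MYF5, which is expressed in satellite cells and committed myoblasts, had the clearest seasonal difference. Its level ran from 2.59 to 7.10 CPM in summer, with a median of 4.81 CPM, and from 0.607 to 1.80 CPM in winter, with a median of 1.12 CPM. Every winter library lay below every summer library. The transcript was rare in both seasons: 697 reads in all were counted in summer and 150 in winter. MYF5 fell by 2.04 on the log2 scale (SE 0.285, 95% interval -2.65 to -1.43), a winter level of 0.243 of that in summer (edgeR adjusted p = 0.000122). Within bears the difference ran from -2.99 in bear 1305 to -1.34 in bear 1511. With the bear as a block the change was -2.05 (edgeR adjusted p = 0.000158), and the call was lost under none of the alternatives run.

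MYOD1, the other lineage-commitment factor, varied widely between bears. It ranged from 0.861 to 4.55 CPM in summer (median 1.94 CPM) and from 0.166 to 2.67 CPM in winter (median 1.37 CPM). The seasons overlapped, and single libraries held 3 to 125 reads. Its log2 fold change was -0.71 (SE 0.497, 95% interval -1.78 to 0.35, edgeR adjusted p = 0.271). In winter 4 of 6 bears had less MYOD1, and the differences ran from -2.52 in bear 1509 to 1.54 in bear 1512. The interval holds both a change as large as that of PAX7 and no change.

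MYOG, the factor that starts terminal differentiation, had nearly the same range in both seasons. It lay between 2.22 and 6.92 CPM in summer (median 4.67 CPM) and between 1.99 and 6.26 CPM in winter (median 4.12 CPM). Its log2 fold change was -0.22 (SE 0.289, 95% interval -0.84 to 0.40, edgeR adjusted p = 0.563), and 4 of 6 bears were lower in winter.

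MYF6, the factor of mature fibres, went the other way from MYF5. It ranged from 26.3 to 50.7 CPM in summer, with a median of 39.2 CPM, and from 25.1 to 90.5 CPM in winter, with a median of 62.2 CPM. The seasons overlapped, and the lowest winter value was that of bear 1509. MYF6 rose by 0.73 on the log2 scale (SE 0.261, 95% interval 0.17 to 1.29), or 1.66-fold (edgeR adjusted p = 0.0379). It was higher in 5 of 6 bears, with bear 1509 at -0.07. With the bear as a block the change was 0.65 (edgeR adjusted p = 0.0267). The call was lost with limma voom (adjusted p = 0.067) and in edgeR without bear 1316 (adjusted p = 0.098), bear 1317 (0.16) or bear 1512 (0.0944). Without the winter library of bear 1509 the change was 0.90 (edgeR adjusted p = 0.00266).

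MYF5 and MYF6 moved in opposite directions, and the makeup of the reads assigned to the 4 myogenic regulatory factors differed between seasons. MYF5 gave 7.31% to 13.8% of these reads in summer (median 9.63%) and 1.02% to 2.63% in winter (median 1.79%). MYF6 gave 73.2% to 80.4% in summer (median 75.7%) and 84.2% to 93.0% in winter (median 89.8%). Neither share overlapped between seasons, also not in the winter library of bear 1509. The 4 shares are parts of one whole, so the MYF6 share rises when the others fall and is not a separate result. In bear 1509 it went from 75.7% in summer to 90.1% in winter, while the MYF6 level went from 26.3 to 25.1 CPM. The MYOD1 share had a median of 4.29% in summer and 1.93% in winter, and the MYOG share 9.29% and 6.12%, both with overlap. These are shares of reads, not of transcripts, since the 4 genes differ in length.

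**Figure D2:**
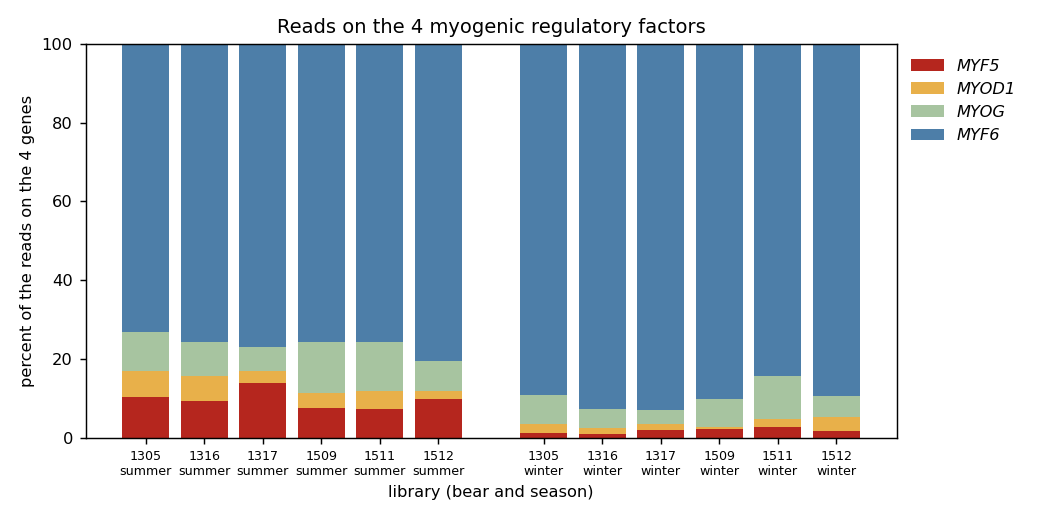
Share of the reads of MYF5, MYOD1, MYOG and MYF6 together that belonged to each, in percent, for each library by season. The MYF5 share lies at 7.31% to 13.8% in summer and at 1.02% to 2.63% in winter, and the MYF6 share at 73.2% to 80.4% and 84.2% to 93.0%.

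PAX7, the defining factor of satellite cells, was lower in winter by a smaller amount. It ranged from 0.763 to 2.19 CPM in summer, with a median of 1.31 CPM, and from 0.552 to 1.02 CPM in winter, with a median of 0.815 CPM. The seasons overlapped through the summer library of bear 1316, the lowest of its season. PAX7 fell by 0.81 on the log2 scale (SE 0.273, 95% interval -1.40 to -0.23, edgeR adjusted p = 0.0298), a winter level of 0.570 of that in summer, and was lower in 5 of 6 bears, with bear 1316 at 0.19. With the bear as a block the change was -0.77 (edgeR adjusted p = 0.0484). The libraries held 10 to 60 PAX7 reads each, and at the lowest count the counting error alone is 31.6% of the value. The call did not hold in every setting. Leaving out bear 1305 gave an edgeR adjusted p of 0.0709, bear 1509 gave 0.0992, bear 1511 gave 0.0773 and bear 1512 gave 0.0638, while DESeq2 with the bear as a block gave 0.0883. Leaving out the winter library of bear 1509 by itself gave 0.0494.

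CDH15 encodes M-cadherin, an adhesion protein between satellite cell and fibre. It ranged from 6.93 to 17.7 CPM in summer (median 11.2 CPM) and from 4.69 to 25.4 CPM in winter (median 16.2 CPM). Its log2 fold change was 0.51 (SE 0.323, 95% interval -0.19 to 1.20, edgeR adjusted p = 0.23). In 5 bears the winter library was higher by 0.52 to 0.83 on the log2 scale, and in bear 1509 the difference was -1.22. Without the winter library of bear 1509 the log2 fold change was 0.70 and passed the test (edgeR adjusted p = 0.0315), and without both libraries of that bear it was 0.70 with an adjusted p of 0.0507. The seasonal result for CDH15 therefore turned on 1 library.

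NCAM1, a neural cell adhesion molecule found on satellite cells, nerve and denervated fibres, did not pass the test. Its level was 11.5 to 26.1 CPM in summer (median 17.2 CPM) and 7.85 to 22.4 CPM in winter (median 13.7 CPM). The log2 fold change was -0.38 (SE 0.242, 95% interval -0.90 to 0.14, edgeR adjusted p = 0.224). In 4 of 6 bears the winter level was below that of summer, with differences from -1.72 in bear 1316 to 0.54 in bear 1509, the bear whose winter library was highest in Schwann cell markers. The part of that nerve signal in the NCAM1 value was not tested.

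MET, the receptor through which hepatocyte growth factor activates satellite cells, was the steadiest of these surface proteins. It ranged from 15.9 to 25.7 CPM in summer (median 17.9 CPM) and from 17.8 to 28.6 CPM in winter (median 20.6 CPM). The log2 fold change was 0.16 (SE 0.149, 95% interval -0.17 to 0.48, edgeR adjusted p = 0.43). It was higher in 5 of 6 bears, with bear 1317 at -0.47. The interval leaves out a decrease of the size of that of PAX7.

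MYMK, the fusion protein, was counted at 4 to 30 reads per library. It lay between 0.235 and 1.04 CPM in summer (median 0.879 CPM) and between 0.130 and 1.69 CPM in winter (median 0.749 CPM). Its log2 fold change of 0.05 had a wide interval (SE 0.516, 95% interval -1.05 to 1.16, edgeR adjusted p = 0.946), and its sign depended on the fit. Winter was higher in 2 bears and lower in 4.

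RUNX1, a transcription factor induced in fibres that have lost their nerve supply, was held within a narrow range. It lay between 1.36 and 2.39 CPM in summer (median 1.57 CPM) and between 1.47 and 2.10 CPM in winter (median 1.81 CPM). The winter values fell within the summer range, with 3 bears higher and 3 lower. The log2 fold change was 0.09 (SE 0.195, 95% interval -0.32 to 0.51, edgeR adjusted p = 0.726).

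**Figure D3:**
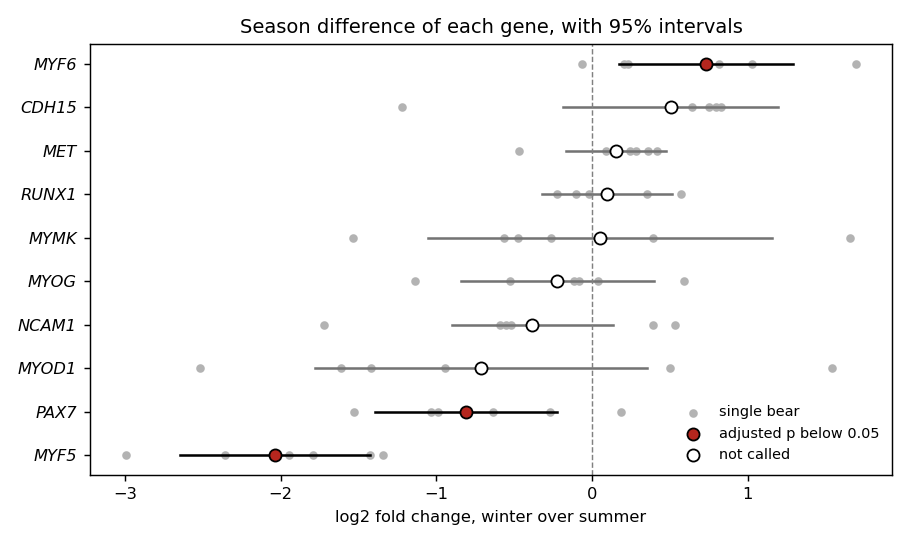
Log2 fold change of winter against summer for each of the 10 genes, with the 95% interval from edgeR as a bar and the differences of the 6 bears as points, to the right where winter was higher. The intervals of MYF5, PAX7 and MYF6 leave out 0, and that of MYF5 lies lowest, at -2.65 to -1.43.

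None of the 7 genes that had missed the threshold passed it once the bear was a block. Their blocked log2 fold changes were -0.72 for MYOD1, -0.41 for NCAM1, -0.21 for MYOG, -0.10 for MYMK, 0.11 for RUNX1, 0.16 for MET and 0.42 for CDH15, with edgeR adjusted p from 0.183 (CDH15) to 0.87 (MYMK).

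Individual libraries moved several of these genes together. In summer, bear 1305 had the highest level of 5 of the 10 genes (PAX7, MYF5, MYF6, MYOD1 and MYOG). In winter, bear 1509 had the lowest level of 6 of them (PAX7, MYF5, MYF6, MYOD1, MYOG and CDH15). Between bears of the same season, the coefficient of variation of the 10 genes ran from 19.7% to 63.9% in summer and from 12.3% to 72.5% in winter.

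Each gene was also set against PAX7 within the same libraries, as the winter minus summer difference of the log2 ratio in each bear. MYF5 stood lower against PAX7 in 6 of 6 bears, by a mean log2 ratio of -1.26 ± 0.857 (SD, n = 6, exact paired permutation test, two-sided, p = 0.0313, adjusted p = 0.0703 over the 9 genes compared). MYF6 stood higher against PAX7 in 6 of 6 bears (1.36 ± 0.371, SD, n = 6, exact p = 0.0313, adjusted p = 0.0703). CDH15 (1.10 ± 0.648, SD) and RUNX1 (0.823 ± 0.650, SD) also stood higher against PAX7 in 6 of 6 bears, with the same exact p. That p is the smallest 6 pairs allow, and none of the 9 differences passed after adjustment. The MYOD1 ratio had no common direction, with 3 bears higher and 3 lower (mean -0.03, exact p = 0.969).

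Other genes of satellite cells and of the pathways around these factors were read from 9 lists of 113 tested genes. Of these, 9 were higher and 39 were lower in winter. By the same test 19.6% of all genes were higher and 19.9% lower, the shares to set beside the counts by direction in each list. Satellite cell genes outside the 10 had 5 of 13 lower and 0 higher (38.5% called, against 39.5% of all genes), with a median log2 fold change of -0.43. With the bear as a block 9 of 13 were lower and 1 was higher. CHODL, a membrane lectin, went from a median of 14.5 CPM in summer to 2.56 CPM in winter and fell by 2.32 on the log2 scale (SE 0.226, edgeR adjusted p = 1.15e-05). The transmembrane protein TENM4 fell by 1.68 (SE 0.261, adjusted p = 0.000262), the fibroblast growth factor receptor FGFR4 by 1.34 (SE 0.257, adjusted p = 0.00108) and the syndecan SDC3 by 1.27 (SE 0.253, adjusted p = 0.00147). All 4 were lower in 6 of 6 bears with no overlap between seasons. The fifth call was CALCR, the calcitonin receptor of quiescent satellite cells, which was named after its values were seen and rests on 26 summer and 4 winter reads (edgeR adjusted p = 0.0183). It was lost in DESeq2 with the bear as a block (adjusted p = 0.0763) and in edgeR without bear 1317 (0.0514) or bear 1511 (0.0619).

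Notch signalling, which keeps satellite cells quiescent, had 5 of 13 genes lower and 0 higher (38.5% called, against 39.5% of all genes, and 1 higher with the bear as a block), with a median log2 fold change of -0.39. Notch genes are also expressed in vessels, whose markers were lower in winter as well: the summed endothelial markers changed by -0.79 on the log2 scale and those of smooth muscle and pericytes, a list that shares NOTCH3 with this one, by -0.88. Their part in the Notch result was not tested. Lower were the ligand DLL1 (-0.98, SE 0.234, edgeR adjusted p = 0.00447) and the effector HEY1 (-0.95, SE 0.199, adjusted p = 0.0021), both in 6 of 6 bears. The receptor NOTCH2 (-0.56, SE 0.175, adjusted p = 0.0203) and the effector HEYL (-0.49, SE 0.149, adjusted p = 0.0181) were lower in 5 of 6 bears. The list fell to 3 lower genes without bear 1305, bear 1317 or bear 1512. NOTCH2 was lost without each of these (adjusted p of 0.0613, 0.0865 and 0.0726), and HEYL without bear 1316 (0.0754) or bear 1317 (0.0576). The fifth lower gene, NUMB, was named after its values were seen (-0.36, SE 0.12, edgeR adjusted p = 0.0283). Its call was lost without bear 1305, 1317, 1511 or 1512 (adjusted p of 0.0621 to 0.0935).

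Partners and inhibitors of the myogenic factors had 1 of 14 genes higher and 5 lower (42.9% called, against 39.5% of all genes), with a median of -0.51. The lower genes included inhibitors: ID1, which binds E proteins away from the myogenic factors, fell by 1.69 (SE 0.282, edgeR adjusted p = 0.000429), and the repressor SNAI2 by 1.06 (SE 0.195, adjusted p = 0.000832), both in 6 of 6 bears. ID3, of the same family as ID1, fell by 1.10 (SE 0.327, adjusted p = 0.0164), but not without bear 1305 (0.0537) or bear 1316 (0.0568), and without either the list had 3 lower genes. The repressor ZEB1 rose by 0.53 (SE 0.102, adjusted p = 0.00112) in 6 of 6 bears.

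EYA proteins and their homeobox partners, which act upstream of the myogenic factors and in fibre type control, had 2 of 9 genes higher and 1 lower (33.3% called, against 39.5% of all genes), with a median of -0.18. EYA4 rose by 0.95 (SE 0.162, edgeR adjusted p = 0.000492) and EYA3 by 0.30 (SE 0.104, adjusted p = 0.0328), both in 6 of 6 bears, while DACH1 fell by 0.70 (SE 0.191, adjusted p = 0.00998). EYA3 lost its call without bear 1305, 1316, 1509 or 1511 and with scaling by library totals (adjusted p of 0.0639 to 0.218), and with no read filter (0.061). With the bear as a block, or without bear 1511, 3 of the 9 were lower.

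The hepatocyte growth factor list, on the ligand side of MET, had 2 of 10 genes higher and 2 lower (40.0% called, against 39.5% of all genes). The serine protease HPN (hepsin), which can activate the growth factor, rose by 2.18 (SE 0.393, edgeR adjusted p = 0.000748) in 6 of 6 bears. Of the signalling proteins behind the receptor, GRB2 rose by 0.44 (SE 0.1, adjusted p = 0.00346) and SOS1 fell by 0.46 (SE 0.121, adjusted p = 0.00889). HGF, named outside the rule as the ligand itself, did not pass the test (-0.30, SE 0.339, adjusted p = 0.509). With the bear as a block 4 of the 10 were lower.

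Fusion genes other than MYMK had 2 of 24 higher and 11 lower (54.2% called, against 39.5% of all genes), with a median of -0.34. The bear block gave 1 higher and 10 lower, and 6 were lower without bear 1317 or bear 1512. The metalloprotease ADAM12 went from 2.29 to 6.12 CPM in summer to 0.123 to 1.44 CPM in winter and fell by 3.26 (SE 0.498, edgeR adjusted p = 0.000229). MYOF (myoferlin) fell by 0.85 (SE 0.153, adjusted p = 0.000775) and the adhesion protein KIRREL1 by 0.83 (SE 0.241, adjusted p = 0.0145, 0.0519 without bear 1509). CAV3, the caveolin of muscle fibres, rose by 0.80 (SE 0.181, adjusted p = 0.0032). MYMX (myomixer), the partner of MYMK in fusion, was named after its values were seen: it had 4 to 15 reads in each summer library and 0 to 2 in each winter library, and was lower in 6 of 6 bears (adjusted p = 0.000534). The other higher gene, ADGRB3, also named after its values were seen, had 114 of its 133 winter reads in the library of bear 1509 and was no longer called without it (adjusted p = 0.868).

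Among 6 relatives and cofactors of RUNX1, 0 passed the edgeR test in either direction, 1 was lower at an unadjusted p under 0.05, 0 passed in DESeq2 and 1 was lower with limma voom. Of 12 developmental or denervation-responsive genes, 2 were higher and 2 lower (33.3% called, against 39.5% of all genes). CHRNG, the fetal acetylcholine receptor subunit that returns in denervated fibres, rose by 2.29 (SE 0.584, edgeR adjusted p = 0.00699) in 5 of 6 bears, and GADD45A, a stress gene induced by denervation, rose by 1.08 (SE 0.251, adjusted p = 0.00395) in 6 of 6. ST8SIA4, an enzyme that adds polysialic acid to NCAM1, fell by 1.05 (SE 0.289, adjusted p = 0.0108). These sat beside MYOG, NCAM1 and RUNX1, none of which passed the test.

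Proliferation genes had 8 of 12 lower and 0 higher (66.7% called, against 39.5% of all genes), with a median of -1.74, and 5 lower without bear 1317. MKI67, a marker of cycling cells, had a median of 5.94 CPM in summer and 0.308 CPM in winter and fell by 2.96 (SE 0.785, edgeR adjusted p = 0.00874). TOP2A fell by 2.81 (SE 0.788, adjusted p = 0.0119, 0.0546 without bear 1317) and the cyclin CCNB1 by 1.64 (SE 0.398, adjusted p = 0.00513). The kinase CDK1 fell by 1.25 (SE 0.383, adjusted p = 0.0188), but not without bear 1305, 1317 or 1511 (0.0507 to 0.0829). Cycling cells in whole muscle need not be of the muscle lineage.

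**Figure D4:**
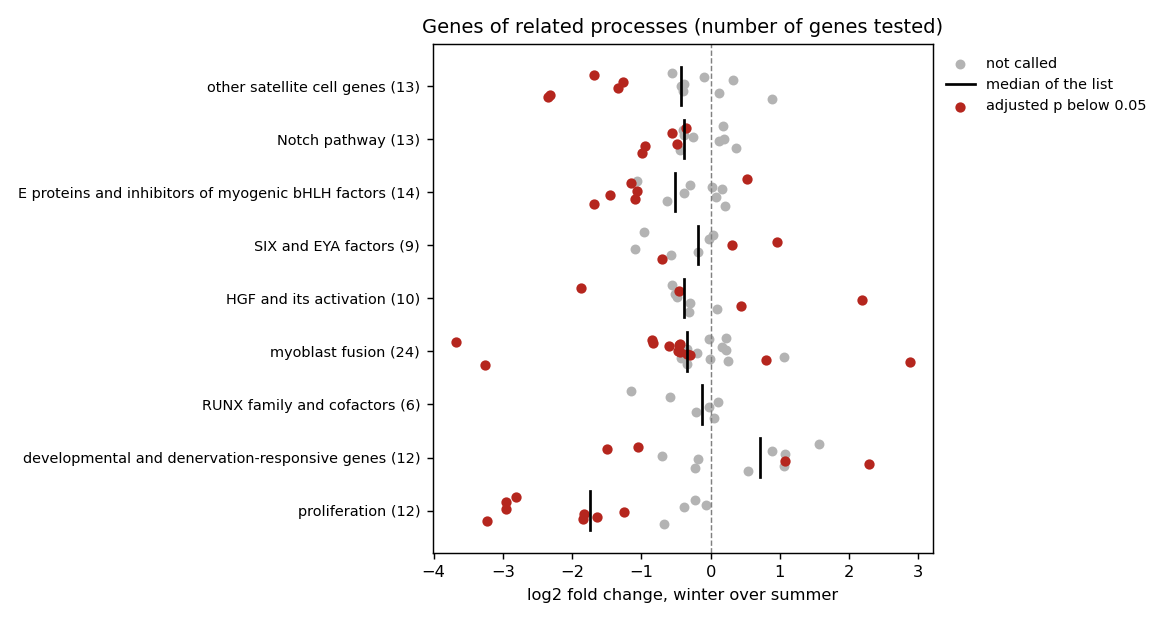
Log2 fold change of winter against summer for each tested gene of the 9 lists, with 1 point per gene, called genes marked and the list median as a bar. Proliferation genes have the lowest median, at -1.74, and the RUNX relatives have 0 called genes.

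Markers of other cells of the tissue were also compared between seasons. Summed fibroblast markers were 3220 to 8120 CPM in summer and 248 to 1410 CPM in winter, with 6 of 8 genes lower and 0 higher. Endothelial markers went from 640.0 to 964 CPM to 440.0 to 504 CPM (5 of 8 lower, 1 higher), smooth muscle and pericyte markers from 469 to 602 CPM to 266 to 343 CPM (3 of 7 lower, 0 higher), and macrophage markers from 89.9 to 138 CPM to 39.7 to 77.2 CPM (5 of 7 lower, 0 higher). For these 4 cell types no winter sum reached the summer range. Most of the summer fibroblast sum came from 2 collagen genes. COL3A1 had a mean of 3169 CPM in summer and 175.7 CPM in winter, and COL1A1 1437 CPM and 59.7 CPM. PDGFRA (-0.489, edgeR adjusted p = 0.0772) and DCN (-0.755, adjusted p = 0.0848), of the same list, did not pass the test. Lymphocyte and natural killer cell markers were at 7.92 to 14.3 CPM and 6.41 to 11.8 CPM (3 of 7 lower, 1 higher), and adipocyte markers at 297 to 1380 CPM and 216 to 459 CPM (1 of 5 lower, 1 higher). Schwann cell markers were at 18.4 to 46.5 CPM and 6.94 to 126 CPM (1 of 6 lower, 0 higher), and myofibre markers had 2 of 7 lower and 1 higher. Of all genes, 39.5% were called either way, 19.6% higher and 19.9% lower. The share was 75.0% for fibroblast and for endothelial markers, 71.4% for macrophage and 57.1% for lymphocyte and natural killer cell markers. It was near that of all genes for smooth muscle and pericyte (42.9%), myofibre (42.9%) and adipocyte markers (40.0%). For Schwann cell markers it was 16.7%. No tested marker was at 0 in every library. MYF5, PAX7 and the lower genes of the 9 lists fell together with the non-fibre markers, whose part in these results was not tested.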

How the data were processed

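The authors sequenced poly(A) RNA from a strand-specific kit, aligned reads with TopHat2 2.1.1 to the brown bear assembly ASM358476v1 and counted them on the reverse strand with featureCounts 1.6.2. The deposited values are raw read counts per gene, with no gene filter.

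Genes with at least 30 reads over the 12 libraries were kept and tested in edgeR 4.0.16 (R 4.3.3) with TMM factors and season as the only term, at an adjusted p of 0.05. Log2 CPM used a prior count of 2. DESeq2 1.42.0, limma 3.58.1 (voom), other scalings and filters, a bear block and leaving out bears were alternatives. The methods were tested on simulated data. Intervals of fold changes are 95%.

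The numbers pair libraries of the same animal. Over genes, what remained after the season mean was taken off correlated at 0.0903 to 0.344 between libraries of a bear, against a median of -0.0634 (highest 0.142) over 30 pairs of different bears. No libraries were duplicates: the lowest chi-square per gene between libraries was 39.

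Members and lists were chosen with earlier results of these data known. Named were all 10 members and, from each list, up to 4 called genes with the largest changes among those with a mean log2 CPM of at least 0. CALCR, NUMB, MYMX, ADGRB3 and HGF were named outside this rule. For PAX7, MYF5, MYOD1, MYOG and MYF6 the 3 most similar genes were sought as the smallest root mean square difference of centred log2 CPM. Of 187 symbols 4 were matched by RefSeq gene ID and 2 were not matched. No coordinates or sequences were used here.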

Additional observations from a re-analysis of the deposited data

Results flagged for a closer look

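Dixon's criterion for 6 values was applied, on the log2 CPM scale, to 78 groups (the 39 genes named by the rule, in each season). It was also applied to the winter minus summer differences of the 10 genes. Levels are printed below in CPM, on which the criterion was not applied. Chance passes it in about 1 of 20 groups, and 4 values passed, no more than that rate gives for so many groups. MYOD1 in winter was at 0.166 CPM in bear 1509, against 1.26 to 2.67 CPM in the other 5 bears. FGFR4 in winter was at 1.49 CPM in bear 1509, against 3.11 to 3.91 CPM in the others. The winter minus summer difference of CDH15 on the log2 scale was -1.22 in bear 1509, against 0.52 to 0.83 in the others. That of MET was -0.47 in bear 1317, against 0.09 to 0.42 in the others. The MYOD1 and FGFR4 values lie in the winter library of bear 1509, and the CDH15 difference is taken between that library and the bear's summer library. The winter library also stood apart in the larger share of all genes given above.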

How the results depend on the processing

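MYF5 was lower and past the threshold in every setting run (log2 -2.19 to -1.82). PAX7 was lower throughout but lost its call in DESeq2 with the bear as a block (-0.77). In edgeR its call was also lost without bear 1305, 1509, 1511 or 1512 (adjusted p of 0.0638 to 0.0992). The change of PAX7 ran from -0.96 to -0.65 without single bears. MYF6 was higher throughout but lost its call with voom (0.65), and in edgeR without bear 1316, 1317 or 1512 (adjusted p of 0.0944 to 0.16). The change of MYF6 ran from 0.53 to 0.90 without single bears or the winter library of bear 1509, with 0.90 in the last of these. CDH15 ran from 0.43 to 0.70 without single bears or the winter library of bear 1509, and RUNX1 from -0.002 to 0.182. MYMK changed sign with the bear as a block in edgeR (-0.10) and DESeq2 (-0.14), with voom (-0.27) and with library totals (-0.047), and ran from -0.42 to 0.31 without single bears. Relative to PAX7, MYOD1 ran from -0.473 to 0.284 and NCAM1 from -0.0506 to 0.744. The cause was not tested. In edgeR the bear block changed no call among the 10 genes. Of the 10, 0 were called higher with voom and 0 at an adjusted p of 0.01 with a fold change above 1.3 or below 0.77, and 0 to 2 without single bears or that library, with 2 (MYF6 and CDH15) only without that library. Called lower were 1 in DESeq2 with the block, 1 at the stricter limits and 1 to 2 without single bears. Of the genes of the other lists, 23 were lower at the stricter limits, 28 to 43 without single bears or that library, and 7 to 10 were higher. At the stricter limits 24.0% of all genes were called either way. Over all genes, 6831 were called in the main fit, 5258 to 6520 without single bears and 7136 without that library. Counting precision was lowest for PAX7, MYOD1 and MYMK, whose lowest counts in a library were 10, 3 and 4 reads.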

Other observations

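The genes whose level moved most like each factor over the 12 libraries were found among 11292 tested genes with a symbol, by the root mean square difference of log2 CPM after centring, a description with no test. For PAX7 they were B4GALT5 (0.236), NAA40 (0.246) and PIK3R6 (0.252). MYF5 was followed less closely, by IGSF23 (0.383), HSPB1 (0.422) and MPST (0.431). MYOD1 was nearest to KCTD15 (0.569), ABHD14A (0.592) and MFSD3 (0.594), MYOG to REXO4 (0.232), GTF2F1 (0.245) and ZNF593 (0.249), and MYF6 to CEP250 (0.272), POLD4 (0.279) and DDIT3 (0.288). Among the 10 genes themselves the closest pair was MET and RUNX1 (0.196), followed by MYF6 and CDH15 (0.5), NCAM1 and RUNX1 (0.547) and PAX7 and MYOG (0.566). All points share the same 12 libraries.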
